A study of Drosophila melanogaster with 4 samples.

Results

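The genes of the cytoplasmic ribosome were placed on the topologically associating domain (TAD) maps of 2 Drosophila melanogaster cell lines. Members are the protein-coding genes whose symbol starts with RpL or RpS followed by a digit, plus RpLP0, RpLP1 and RpLP2, while the mitochondrial ribosomal genes (mRpL, mRpS) were kept out. By its letters the rule also takes RpL7-like and RpL24-like, which may encode assembly factors rather than ribosomal proteins, and both are counted as members throughout. The rule found 91 genes among 13945 protein-coding genes on chromosome arms 2L, 2R, 3L and 3R and on chromosomes 4 and X. By symbol alone, they split into 38 small-subunit genes, 50 large-subunit genes and 3 stalk genes. They are scattered, with 19 members on 2L, 20 members on 2R, 14 members on 3L, 23 members on 3R, 1 on chromosome 4 and 14 members on X.

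BG3 cells are a male line that was established from larval central nervous system tissue. Kc167 cells are a female line established from embryos. The labels name no treatment. A difference between the lines can come from tissue, sex or culture history, which cannot be told apart here, and the lists hold no expression values against which the cell type could be checked. In situ Hi-C digests DNA inside the nucleus, here with DpnII at its site GATC, and ligates ends that were close in space. There were 2 replicates per line, merged by the authors into 1 map before TADs and loops were called. The comparison of the lines therefore has no replicate error, and everything below is a description of both merged maps.

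The ribosome consists of a small subunit, which reads the mRNA, and a large subunit, which joins amino acids. The stalk of the large subunit recruits the GTPase translation factors. Most ribosomal proteins are needed in nearly every cell, so most of these genes count among the most highly and widely transcribed of the genome. Copies enriched in testis, ovary or germline are named below. In flies, losing 1 copy of many of them gives the Minute phenotype of slow growth and short bristles. Many of them start at a pyrimidine-rich TCT initiator, and many carry small nucleolar RNA (snoRNA) genes in their introns. Highly transcribed housekeeping promoters are known to lie often at TAD borders in Drosophila.

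The promoters of 9 members with a border listed in the window from 130 bases before to 10 bases from the 5' end are shown first. Some of the shortest distances below turn on them. RpLP2 and RpL41 also have a border listed in that window and are not printed. The sequences were read from the RefSeq copy of the dm6 genome (release 6) over that window, in the sense of the gene. Capitals mark 4 strings: the M1BP core GGTCACAC, the DRE core TATCGATA (the site of the factor DREF), CTTT within 10 bases of the start, and TGGTATTTT, which was added after the sequences were seen. The first 2 sequences have a border of both maps (RpS9 at chr3L:9511522-9511661 on the minus strand, RpL13A at chr3R:5624344-5624483 on the plus strand). RpS3 (chr3R:23358682-23358821, plus), RpL27A (chr2L:4458355-4458494, minus) and RpL7A (chrX:6533339-6533478, minus) have a BG3 border. The last 4 have a Kc167 border: RpL36A (chr2L:8042900-8043039, minus), RpL24 (chr2L:13395122-13395261, minus), RpL34a (chr3R:26059258-26059397, minus) and RpL37-1 (chrX:15139358-15139497, minus).
RpS9: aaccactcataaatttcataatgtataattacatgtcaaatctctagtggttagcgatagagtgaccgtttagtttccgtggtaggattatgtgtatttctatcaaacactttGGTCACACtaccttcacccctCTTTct
RpL13A: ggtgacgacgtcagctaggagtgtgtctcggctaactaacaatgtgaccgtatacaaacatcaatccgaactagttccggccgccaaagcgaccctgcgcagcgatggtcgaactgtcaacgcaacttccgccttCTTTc
RpS3: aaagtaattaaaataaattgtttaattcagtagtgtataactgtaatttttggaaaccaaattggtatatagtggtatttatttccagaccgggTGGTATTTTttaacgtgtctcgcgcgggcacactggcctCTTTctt
RpL27A: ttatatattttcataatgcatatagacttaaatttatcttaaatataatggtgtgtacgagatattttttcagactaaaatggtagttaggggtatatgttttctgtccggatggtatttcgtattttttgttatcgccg
RpL7A: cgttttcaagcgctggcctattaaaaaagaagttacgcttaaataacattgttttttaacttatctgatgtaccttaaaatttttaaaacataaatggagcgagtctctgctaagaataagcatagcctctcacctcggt
RpL36A: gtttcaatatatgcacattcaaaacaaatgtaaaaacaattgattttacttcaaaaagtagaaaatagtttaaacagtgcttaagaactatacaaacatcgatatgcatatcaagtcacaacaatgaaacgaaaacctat
RpL24: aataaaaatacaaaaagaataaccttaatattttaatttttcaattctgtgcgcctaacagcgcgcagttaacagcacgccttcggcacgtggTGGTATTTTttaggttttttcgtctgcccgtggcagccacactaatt
RpL34a: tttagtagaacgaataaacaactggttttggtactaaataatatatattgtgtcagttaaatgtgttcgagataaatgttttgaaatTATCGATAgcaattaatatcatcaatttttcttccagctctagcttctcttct
RpL37-1: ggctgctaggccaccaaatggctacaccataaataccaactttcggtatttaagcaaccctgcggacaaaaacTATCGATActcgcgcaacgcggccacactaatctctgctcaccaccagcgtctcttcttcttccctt
With the 5' end counted as base 1, CTTT began at base 5 in RpS9, 6 in RpL13A and 4 in RpS3, and it was followed by a pyrimidine in each. The M1BP core of RpS9 began at base -17, and its border was listed at -100. The DRE core began at base -43 in RpL34a, whose Kc167 border was listed at -10, and at -57 in RpL37-1, whose Kc167 border was listed at -68. Of the 4 strings, the printed window of RpL24 held TGGTATTTT alone and those of RpL27A, RpL7A and RpL36A none. None of the 9 windows holds a DpnII site GATC, so the borders in them are positions inside a restriction fragment and not cut sites, and their order relative to these strings and to the start is not resolved.

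A larger share of ribosomal protein genes than of all genes started near a TAD border in both lines, though most members did not. The 5' end lay within 2 kb of a border for 36 of the 91 genes in BG3 (39.6%, Wilson 95% interval 30.1 to 49.8) and for 37 in Kc167 (40.7%, 31.1 to 50.9). Over all protein-coding genes the shares were 16.9% in BG3 and 19.9% in Kc167. The intervals cover counting error alone and treat genes as independent, which neighbours such as RpS14a and RpS14b are not. Within 250 bp of a border lay 16 members in BG3 (17.6%, against 4.65% of all genes) and 19 in Kc167 (20.9%, against 6.08%). The median distance was 5.20 kb in BG3 and 3.37 kb in Kc167, while the medians over all genes were 11.7 kb in BG3 and 9.15 kb in Kc167. At larger distances the curves came together, and within 50 kb lay 93.4% of members and 91.4% of all genes in BG3.

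**Figure D1:**
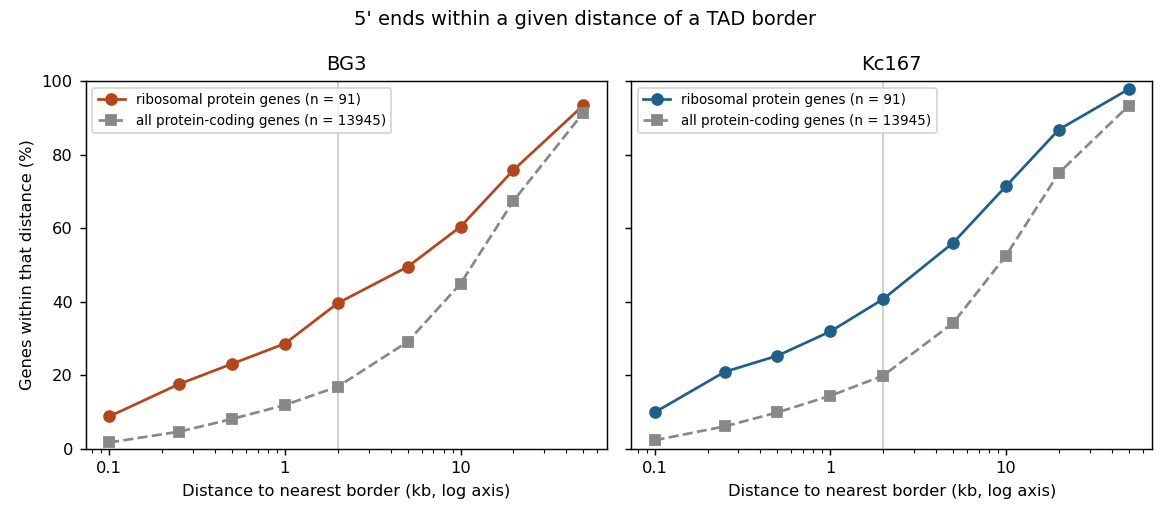
Share of genes (%) whose 5' end lies within a given distance (kb, log axis) of the nearest TAD border, in BG3 (left) and Kc167 (right), with solid lines for the 91 ribosomal protein genes, dashed grey lines for all 13945 protein-coding genes and a grey vertical line at 2 kb. The solid line is above the dashed one at each distance drawn, at 2 kb by 39.6% against 16.9% in BG3 and 40.7% against 19.9% in Kc167.

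A border is known at best to the restriction fragment. The DpnII fragments that hold a member's 5' end had a median length of 848 bp, with a range of 87 to 2410 bp. In BG3 19 members and in Kc167 25 members started on the same fragment as their nearest border. Such short distances therefore say that gene start and border share a fragment, and their order within it is not resolved. Of the members within 2 kb, start and border lay on different fragments for 17 of 36 in BG3 and 12 of 37 in Kc167. Over all genes within 2 kb this held for 1323 of 2363 in BG3 and 1541 of 2782 in Kc167. Sharing a fragment was thus frequent over all genes too, though less so than among the members. Upstream and downstream positions below are those of the listed coordinates. The limit of 2 kb also cuts close in places. In BG3, RpS3A at 1807 bp and RpS28b at 1789 bp were just inside, and RpS13 at 2017 bp and RpS7 at 2106 bp just outside.

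Small-subunit genes were within 2 kb for 17 of 38 in BG3 and 17 of 38 in Kc167 (44.7% each). Large-subunit genes were so for 17 of 50 in BG3 (34.0%) and 18 of 50 in Kc167 (36.0%). Of the stalk genes, RpLP1 and RpLP2 were near a border and RpLP0 was far from one. By chromosome, 2L had 42.1% of its members near a border in BG3 (16.3% of all its genes) and 57.9% in Kc167 (19.1%). On 2R the members' shares were 40.0% in BG3 (against 15.8%) and 35.0% in Kc167 (19.8%), and on 3L 42.9% in each map (19.2% in BG3 and 19.5% in Kc167). On 3R they were 26.1% in BG3 (against 17.7%) and 34.8% in Kc167 (20.3%). On X, 7 of 14 members were near a border in BG3 (50.0%, against 14.8% of all X-linked genes) and 4 of 14 in Kc167 (28.6%, against 20.8%). The X-linked genes near a border in BG3 alone were RpL35, RpL7A, RpS28b and RpS19a, and the one near a border in Kc167 alone was RpL37-1.

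Both maps had a border within 2 kb for 25 members (27.5%, against 11.3% of all genes). BG3 alone had one for 11 members (12.1%, 6.89 to 20.4, against 5.63%). Kc167 alone had one for 12 (13.2%, 7.71 to 21.6, against 8.63%), and that interval covers the all-gene share. The remaining 43 genes were near a border in neither map. Their distances ranged up to 77.8 kb in BG3 (median 16.0 kb) and up to 158 kb in Kc167 (median 11.7 kb).

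**Figure D2:**
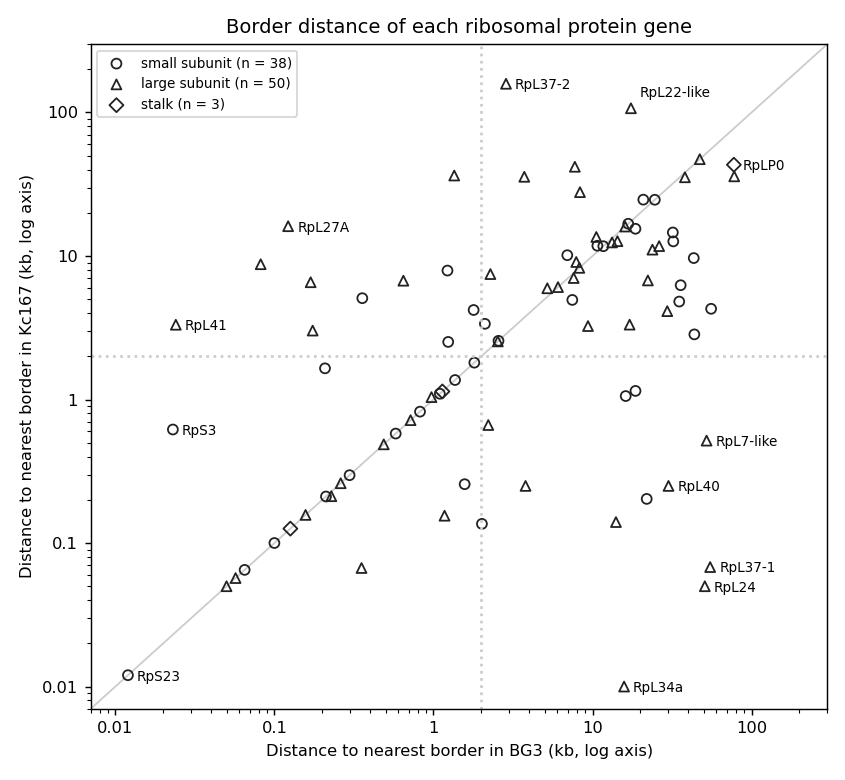
Distance from the 5' end to the nearest border in BG3 (horizontal, kb, log axis) and in Kc167 (vertical, kb, log axis) for the 91 ribosomal protein genes, with circles for the small subunit, triangles for the large subunit, diamonds for the stalk, dotted lines at 2 kb and a grey line of equal distance. Genes at conserved borders lie on the grey line, such as RpS23 at 12 bp, while RpL24 and RpL37-1 lie far below it and RpL41 and RpL37-2 far above it.

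A border was called conserved if a border of the other map lay within 20 bp, specific if none lay within 2 kb, and fuzzy in between, and each gene took the class of its nearest border. Conserved borders lay within 2 kb of 18 members (19.8%, 12.9 to 29.1, against 6.40% of all genes). The stringent TAD call kept the border of 8 of these in both maps (8.79% of members, against 2.60% of all genes). Such borders are called strong below. The same conserved border was the nearest one in both maps, at any distance, for 27 members (29.7%) and for 23.6% of all genes.

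Among the small-subunit genes at conserved borders, the border lay 65 bp into the body of RpS27 and 297 bp into that of RpS28a. RpS3A, the only member on chromosome 4, started 1807 bp from its border in BG3 and 1806 bp in Kc167, and the Wnt pathway transcription factor gene pan started 312 bp beyond that border in BG3. RpS3A had no BG3 TAD of its own, since its start lies outside the first TAD called on that chromosome. RpS14a and RpS14b, tandem copies of 1 small-subunit gene on X, shared 1 border, 211 bp upstream of RpS14a and 1367 bp upstream of RpS14b. Dhdds, a dolichol synthesis gene, started 180 bp beyond it. RpS23, which helps to read the codon, had its border 12 bp from the start, RpS9 at 100 bp and RpS16 at 579 bp.

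Among the large-subunit genes at conserved borders, the border lay inside the body for RpL7 (50 bp from the start), RpL29 (157 bp) and RpL17 (718 bp), whose protein lines the exit tunnel. It lay upstream for RpL13A (57 bp), RpL30 (261 bp) and RpL12 (487 bp), which sits at the base of the stalk. Of the acidic stalk proteins, RpLP2 had a border 126 bp upstream, and RpLP1 had one 1138 bp downstream, past its 3' end, with CG11885 starting 360 bp beyond it. RpLP0, which anchors the stalk, lay 77.4 kb from a border in BG3 and 43.2 kb in Kc167.

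Fuzzy borders lay within 2 kb of 8 members in BG3 (8.79%, against 5.16% of all genes) and of 8 in Kc167 (8.79%, against 5.23%). The members' interval, 4.52 to 16.4 in each map, covers these all-gene shares. RpS21, RpL36A, RpS26, RpL23A, RpL8, RpL26 and RpS3 had one in both maps, RpS19a in BG3 alone and RpS13 in Kc167 alone. For 6 of the 7 shared genes, the listed coordinates of both borders were on opposite sides of the 5' end, but each of the 6 started on the fragment of 1 of these borders, so the side is not resolved. The BG3 border was listed upstream of RpS26 (208 bp), RpS3 (23 bp) and RpL26 (1174 bp), whose Kc167 border was listed in the body, at 1649 bp in RpS26, 618 bp in RpS3 and 155 bp in RpL26. RpS26 contacts the mRNA before the start codon, and RpS3 lines the mRNA entry channel. The reverse held for RpL23A, with 228 bp into the body in BG3 and 212 bp upstream in Kc167, and for RpL36A, with 353 bp into the body in BG3 and 67 bp upstream in Kc167. At RpS21 the BG3 border lay 1571 bp downstream, past the 3' end, and the Kc167 border 257 bp upstream. RpL8, the only one of the 7 that started on a fragment of neither border, had both on 1 side, at 972 bp in BG3 and 1039 bp in Kc167.

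BG3-specific borders lay within 2 kb of 10 members (11.0%, 6.08 to 19.1, against 5.38% of all genes), and 2 of these borders were strong, those at RpS15 and RpL41. From the 10 borders to the nearest Kc167 border it was 2415 bp (RpS28b) to 37709 bp (RpL13). Only the borders at RpL27A and RpL13 had no Kc167 border within 10 kb. When specific meant over 10 kb, the share was thus 2.20% of members, against 2.60% of all genes. RpL41, the smallest ribosomal protein, started 24 bp from its BG3 border and 3318 bp from the nearest Kc167 border. RpL7A started 82 bp from one in BG3 and 8761 bp in Kc167, and the Notch pathway gene dx started 569 bp beyond the BG3 border. RpL27A started 122 bp from its BG3 border and 16124 bp from the nearest Kc167 border. The mitochondrial ribosomal gene mRpL27 started 1152 bp beyond that BG3 border. The remaining BG3 distances were 169 bp for RpL34b, 174 bp for RpL35A, 357 bp for RpS4, 647 bp for RpL35, 1225 bp for RpS15, 1351 bp for RpL13 and 1789 bp for RpS28b. In Kc167 these 7 genes lay between 3.02 kb (RpL35A) and 36.4 kb (RpL13) from a border.

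Kc167-specific borders lay within 2 kb of 11 members (12.1%, 6.89 to 20.4, against 8.32% of all genes), and this interval covers the all-gene share. When specific meant over 10 kb, the share was 9.89%, against 5.43%. Of the Kc167-specific borders at members 1 was strong, that at RpL24. RpL24, which bridges the subunits, started 50.8 kb from a border in BG3 and 50 bp from one in Kc167. RpL34a started 15.8 kb from a border in BG3 and 10 bp in Kc167, and RpL37-1 54.9 kb in BG3 and 68 bp in Kc167. Both genes that encode a ribosomal protein fused to ubiquitin belonged to this class. RpL40 lay 30.1 kb from a border in BG3 and 250 bp in Kc167, and RpS27A 21.9 kb in BG3 and 203 bp in Kc167. RpL6, RpL14, RpL7-like and RpS25 also belonged to it, and lay 3.79 kb (RpL14) to 52.2 kb (RpL7-like) from a border in BG3. In Kc167 their distances were 140 bp for RpL6, 250 bp for RpL14, 517 bp for RpL7-like and 1148 bp for RpS25.

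**Figure D3:**
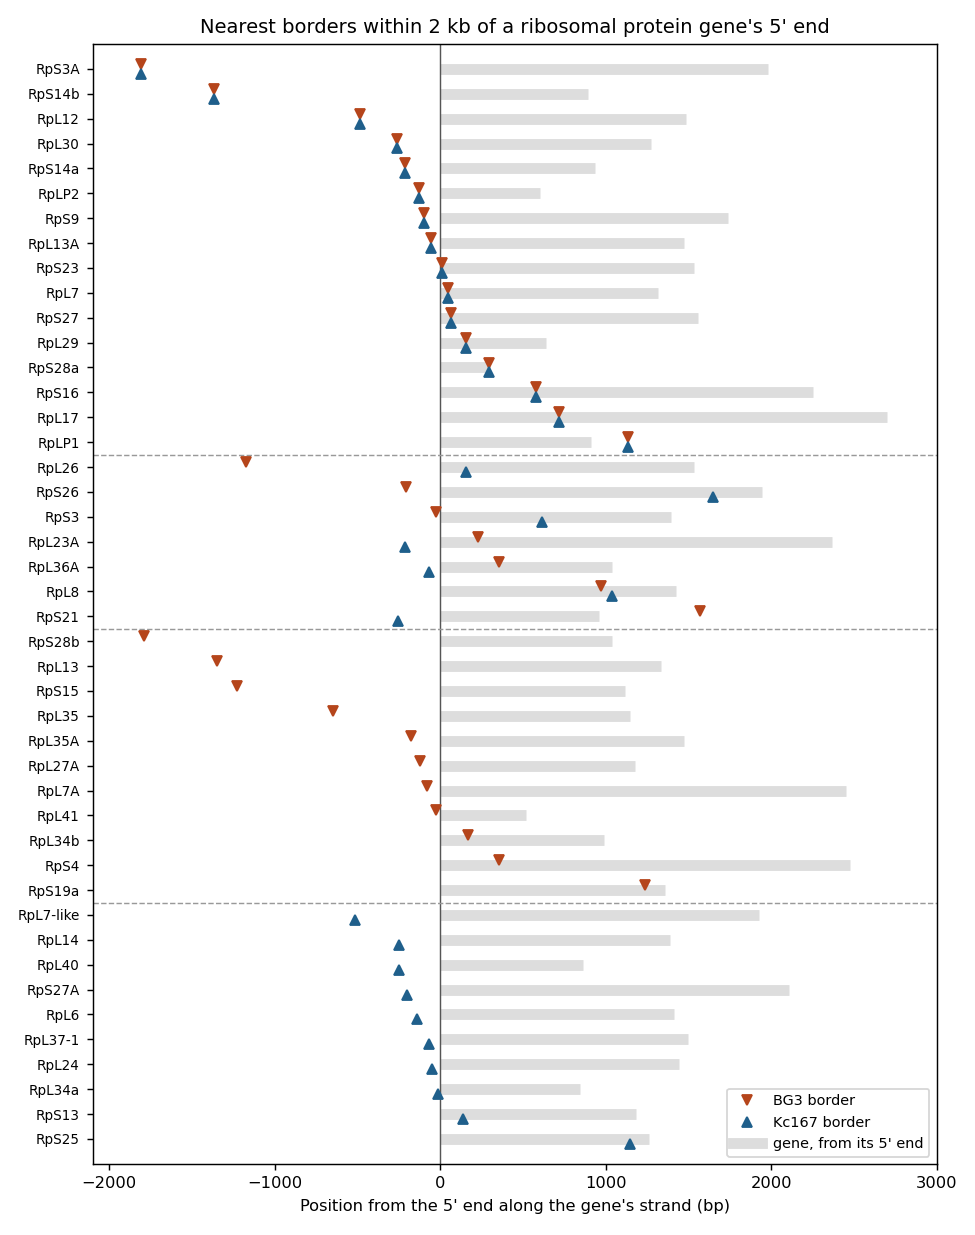
Ribosomal protein genes with a border within 2 kb of the 5' end in either map (44 of the 48), 1 per row, drawn along the gene's strand from the 5' end at 0 (grey bars, bp), with the nearest BG3 border as a downward triangle and the nearest Kc167 border as an upward triangle. Rows from top to bottom are divided by dashed lines into 16 genes at conserved borders, 7 at fuzzy borders of both maps, 11 near a border in BG3 alone and 10 near a border in Kc167 alone, and most of the triangles right of 0 lie on the gene itself.

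Transcription ran away from the listed border, with the border upstream of the start, for 21 of the 36 members near one in BG3 (58.3%, 42.2 to 72.9). In Kc167 this held for 23 of 37 (62.2%, 46.1 to 75.9). Over all genes within 2 kb, the shares were 62.0% in BG3 and 62.3% in Kc167, within the members' intervals. Where start and border lay on different fragments, the listed side does not turn on a position within 1 fragment. There the border was upstream for 8 of 17 members in BG3 (47.1%, 26.2 to 69.0, against 59.0% of all such genes). In Kc167 it was upstream for 5 of 12 (41.7%, 19.3 to 68.0, against 60.3%). Where the border lay downstream of the start, it was inside the member's own body for 13 of 15 genes in BG3 and 13 of 14 in Kc167 (86.7% and 92.9%, against 80.6% and 83.7% over all genes). The exceptions were RpLP1 in both maps and RpS21 in BG3.

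Some borders were listed between a member and a neighbour that is transcribed the other way. Of the members, 67 have a 5' end of an opposite-strand gene within 5 kb upstream, and a border was listed between both starts for 10 of these in BG3 (14.9%) and 12 in Kc167 (17.9%). Over all 7907 genes with such a neighbour the shares were 10.3% in BG3 and 11.7% in Kc167. Both maps listed a border between RpL13A and Spec2 (349 bp between starts) and between each of RpS14a and RpS14b and Dhdds. The other such pairs were RpL30 and robl37BC, RpL12 and ppk29, and RpS3A and pan. The pairs in BG3 alone were RpL7A and dx (651 bp), RpL35A and POLDIP2 (677 bp), RpL27A and CG15435, and RpS3 and ATPsynCF6. Those in Kc167 alone included RpL34a and Trmt61 (229 bp), RpS21 and CG3104 (292 bp), and RpL40 and CG3702 (602 bp). They also included RpS27A and LSm-4, and RpL24 and CG7110. Of the members in these pairs, only RpS3A and RpS14b started on another fragment than the border. For the others the order of start and border is not resolved.

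The borders at ribosomal protein genes had low TAD separation scores. This score is the authors' measure of contacts across a position, and lower values mean fewer contacts across it. It is compared within 1 map only. In BG3, the 35 borders within 2 kb of a member had a median of -0.215 (95% interval -0.250 to -0.192), against -0.0547 for the 1399 borders within 2 kb of any protein-coding 5' end. In Kc167, the 36 borders at members had a median of -0.231 (-0.283 to -0.103), against -0.0819 for 1643 borders. Scores were below 0 for 88.6% of the members' borders in BG3 and 86.1% in Kc167, and for 62.5% and 65.9% of the borders at any gene. The lowest were -0.515 at RpS21 in BG3 and -0.545 at RpLP2 in Kc167. In BG3 0.489% of all borders, and in Kc167 0.319%, scored as low or lower. By class, the Kc167-specific borders at members had a median of -0.0425, from -0.368 (RpS25) to 0.279 (RpL6), against -0.0678 at any gene. BG3-specific ones had a median of -0.217, against -0.00687, and conserved ones -0.216 in BG3 and -0.240 in Kc167, against -0.0792 and -0.0943.

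The largest differences between the lines were at duplicated genes. RpL37-2 started 2858 bp from a border in BG3 and 158 kb from one in Kc167. RpL22-like, a testis-enriched copy of RpL22, lay 17.4 kb from a border in BG3 and 107 kb from one in Kc167. Both are on 2R inside 1 Kc167 TAD of 413 kb, chr2R:22942032-23354858, the widest that held a member, where BG3 has TADs of 132.8 kb (RpL37-2) and 124.4 kb (RpL22-like). The opposite held for RpL37-1 (54.9 kb in BG3, 68 bp in Kc167), RpL7-like (52.2 kb, 517 bp) and RpS28-like (55.7 kb, 4286 bp). RpL7-like resembles a yeast assembly factor of the large subunit. Over all members the border was nearer in BG3 for 27, nearer in Kc167 for 38 and equally near for 26, and over all genes these shares were 32.5%, 43.9% and 23.6%, against 29.7%, 41.8% and 28.6% of members. The BG3 map holds 2255 borders and the Kc167 map 2512, and the Kc167 map rests on more read pairs by the study's account. The part of depth in these differences was not tested.

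The copies RpS14a and RpS14b shared a border, while the copies named next lay at different distances from one. RpL34a lay 15.8 kb from a border in BG3 and 10 bp in Kc167, and RpL34b 169 bp in BG3 and 6.56 kb in Kc167. RpS28a lay 297 bp from a conserved border, RpS28b 1789 bp in BG3 and 4204 bp in Kc167. RpS19a lay 1238 bp from one in BG3 and 2519 bp in Kc167, and its germline copy RpS19b 43.3 kb and 9.67 kb. RpL7 started 50 bp from a conserved border. RpS5b, an ovary-enriched copy, lay 2564 bp from a conserved border, and the broadly used RpS5a 11.7 kb from another. Genes with a copy suffix (a, b or -like) were near a border for 6 of 20 in BG3 and 5 of 20 in Kc167, and the other members for 30 of 71 and 32 of 71.

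The members farthest from a border in BG3 were RpL22 (77.8 kb), RpLP0 (77.4 kb), RpS28-like, RpL37-1 and RpL7-like. In Kc167 they were RpL37-2, RpL22-like, RpL23 (47.2 kb, the same border as in BG3), RpLP0 and RpL38 (41.8 kb). RpLP0 was thus the only member among the 5 farthest in both maps. It lay near the middle of a BG3 TAD of 160.5 kb, at 96.5% of the way from the nearer end to the centre, and at 52.8% in a Kc167 TAD of 163.8 kb.

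TADs that held a ribosomal protein gene were wider in BG3 than in Kc167. The median width was 60.6 kb in BG3 (n = 90, 95% interval 46.5 to 66.0) and 35.4 kb in Kc167 (n = 91, 30.9 to 44.3), against 65.2 kb in BG3 and 49.1 kb in Kc167 over all genes. The BG3 TAD was the narrower one for 31 members and the Kc167 TAD for 51, with 8 equal, which is 34.4% and 56.7% of members against 36.9% and 56.1% of all genes. In BG3 the narrowest held RpL7A (8.8 kb), RpS16 (9.7 kb) and RpLP1 (17.4 kb), and the widest RpS18 (374.8 kb), RpL37-1 (211.2 kb) and RpL4 (184.8 kb). In Kc167, RpS16 (9.3 kb) and RpL29 (11.5 kb) were among the members in the narrowest. RpL5, whose protein binds the 5S rRNA, lay in the widest after that of RpL37-2 and RpL22-like, 218.3 kb. RpS18 was in a TAD of 17.7 kb in Kc167, and RpL7A in one of 66.4 kb.

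These TADs were dense in genes. They held a median of 2.05 protein-coding 5' ends per 10 kb in BG3 and 2.52 in Kc167, against 1.70 and 1.82 for the TADs of all genes, which count each TAD once per gene in it. Within the TAD the median member lay at 18.6% of the way from the nearer end to the centre in BG3 and at 19.9% in Kc167, against 42.0% and 40.7% over all genes. The part of TAD width in the distances was not tested. RpS23 lay closest to its TAD's end by this measure, at 0.0407% in both maps.

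**Figure D4:**
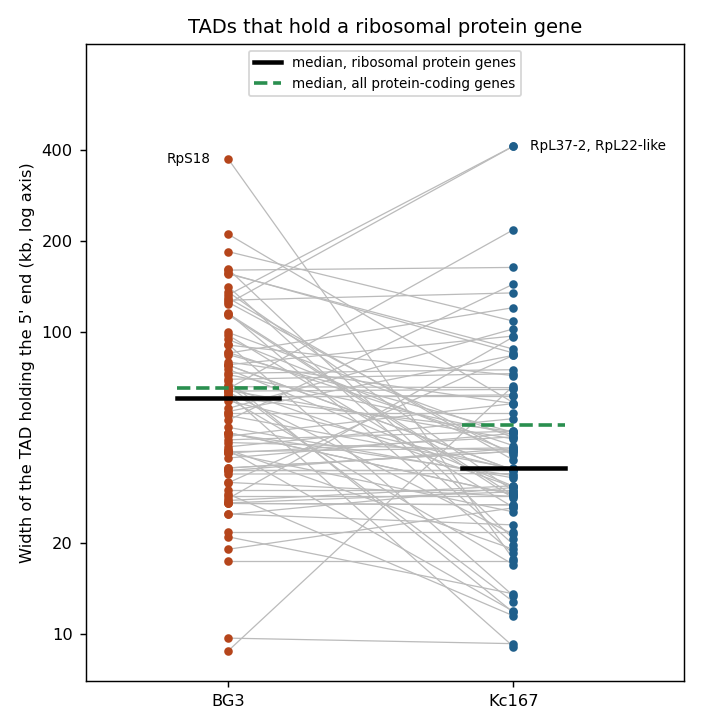
Width (kb, log axis) of the TAD that holds each ribosomal protein gene's 5' end in BG3 (left) and Kc167 (right), with a line for each of the 90 genes that lie in a TAD in both maps, black bars for the members' medians and dashed green bars for the medians over all protein-coding genes. The black bar is at 60.6 kb in BG3 and 35.4 kb in Kc167, the dashed one at 65.2 kb and 49.1 kb, and the lines cross in both directions.

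Some members shared a TAD. In BG3 10 members (11.0%), and in Kc167 14 members (15.4%), lay in a TAD with another one, always in pairs. Of the 73 mitochondrial ribosomal genes, 5 in BG3 and 3 in Kc167 shared a TAD with another of that list, and these counts depend on the size of the list. Common to both maps were RpL12 and RpL39, RpS12 and RpS4, RpS25 and RpL3, RpS28a and RpL32, and RpS14a and RpS14b. RpL12 and RpL39 start 2.05 kb apart and run toward each other, and the conserved border upstream of RpL12 is also the nearest of RpL39, at 2540 bp. Their TAD was 27.1 kb wide in BG3 and 26.8 kb in Kc167. RpS14a and RpS14b lay in the same TAD of 34.9 kb in both maps. RpL32 is a common reference gene for transcript levels. It lay with RpS28a, 23.5 kb away, in a TAD of 77.8 kb in BG3 and of 34.9 kb in Kc167. In Kc167 alone, RpS20 and RpS30 shared a TAD of 58.0 kb, and a BG3 border separated them at 7.46 kb from RpS20. RpL37-2 and RpL22-like, 147 kb apart, were the other Kc167 pair. RpS6, the substrate of S6 kinase, lay beyond the border of RpS14a and RpS14b, 32.2 kb from it in BG3.

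The share of ribosomal protein genes at loop anchors was near the background in both maps. With each 2 kb anchor extended by 1 kb, 7 members were in an anchor in BG3 (7.69%, 3.78 to 15.0, against 6.27% of all genes) and 5 in Kc167 (5.49%, 2.37 to 12.2, against 8.56%). Without the extension, the members in an anchor were RpL7-like, RpL21 and RpS15Ab in BG3 and RpL7-like alone in Kc167. With it, RpL7-like and RpL30 were at the same loop in both maps. The loop of RpL7-like spanned 28.0 kb and its other anchor held prd, the pair-rule gene paired. It had 24 observed contacts in BG3 and 59 in Kc167, 5.10 and 5.11 times the number expected from the surrounding pixels. The loop of RpL30 spanned 16.0 kb to Sidpn, with 101 observed contacts in BG3 (2.73 times the expected) and 230 in Kc167 (2.47 times). Its anchor near RpL30 lay outside the gene, beyond the conserved border listed upstream of it. Observed contacts are not scaled to depth and are not compared between maps.

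RpL4, which lines the exit tunnel, was at an anchor in both maps, of a loop of 214 kb in BG3, whose other anchor held CG12877 and CROT, and of a loop of 282 kb in Kc167. Kc167 had 1 more loop with both anchors within 10 kb of those of the BG3 loop, but RpL4 was not in its anchor. BG3 alone had loops at RpS21 (18.0 kb, to CG3119 and Cpr23B, 3.52 times the expected), RpL21 (112 kb, 5.99 times), RpS15Ab (16.0 kb, to LTV1 and alka, 2.30 times) and RpL6 (18.0 kb, 2.09 times). Kc167 alone had a loop at RpL34a (16.0 kb, 1.85 times), whose anchor lay outside the gene, beyond the Kc167 border listed at 10 bp. Kc167 alone also had 2 loops at RpS15Aa. Both of these had RpS15Aa at 1 anchor and reached 48.0 kb to the left (4.44 times) and 26.0 kb to the right (4.87 times). Before the extension, the anchors at RpS15Aa, RpL4 and RpS21 also lay outside the gene. Most of these anchors hold other gene starts too, such as Prosbeta5 and dgo beside RpS15Ab or Trmt61 beside RpL34a, so a loop is not assigned to the ribosomal protein gene. The q-value against the donut ranged from 4.25e-13 (RpL30) to 0.00162 (RpS15Ab) in BG3 and from 1.78e-25 (RpL30) to 0.0113 (RpL4) in Kc167, as the authors computed it.

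Several features that the rule did not use differed in frequency between the members and all genes. Most of these features were found in a minority of the members. The members were short, with a median gene length of 1318 bp, against 2166 bp over all genes. The string CTTT lay within 10 bases of the start on the sense strand in 38 of 91 (41.8%, against 8.72% of all genes). With its C at the annotated first base it was in 0 of 91 members and 70 of all genes. The DRE core, on either strand within 250 bases before to 50 bases after the start, was in 28 (30.8%, against 9.36%), and the M1BP core in 14 (15.4%, against 7.70%). A DpnII site was in this window in 27 members (29.7%, against 45.2%), and the part of cut sites in the border positions was not tested. A snoRNA gene lay inside 28 members (30.8%, against 0.624%), 74 such genes in all, with 14 in RpS5a and 7 in RpS7. An opposite-strand 5' end lay within 1 kb upstream of 53 members (58.2%, against 33.3%). A match of letters is not a bound site.

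**Figure D5:**
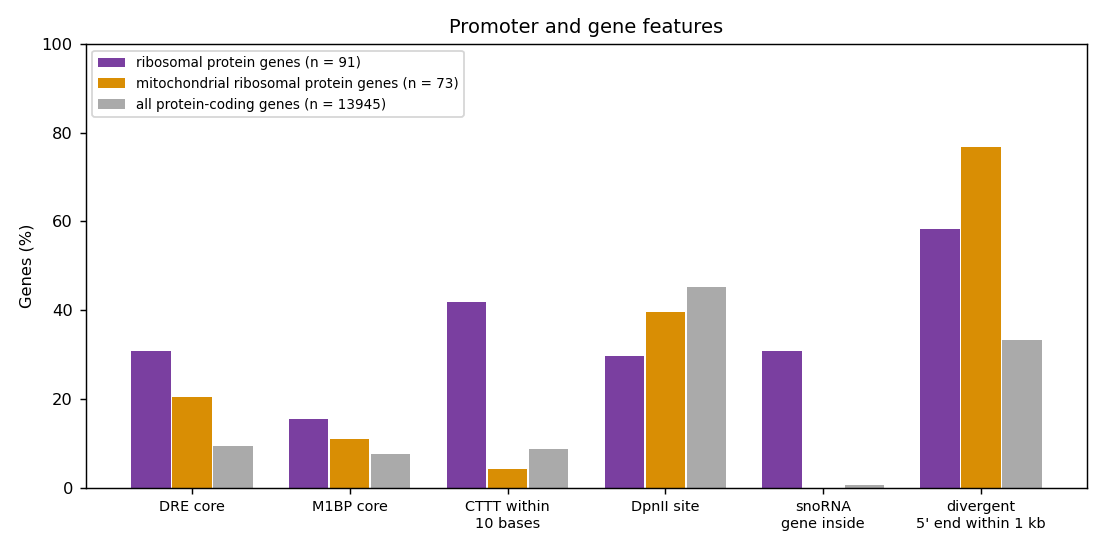
Share of genes (%) with each feature, among the 91 ribosomal protein genes (purple), the 73 mitochondrial ribosomal protein genes (orange) and all 13945 protein-coding genes (grey), where DRE core, M1BP core and DpnII site are sought from 250 bases before to 50 bases after the 5' end and CTTT within 10 bases of it. The purple bar stands above the others for CTTT (41.8%) and for snoRNA genes inside (30.8%), while the orange bar is highest for divergent 5' ends (76.7%).

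The promoter strings were then set beside the borders. Of the 28 members with the DRE core, 5 were near a border in BG3 (17.9%) and 11 in Kc167 (39.3%), and of the 63 without it 31 in BG3 (49.2%) and 26 in Kc167 (41.3%). The members' shares thus differed in BG3 and were close in Kc167. Over all genes the share was higher with the core in both maps. It was 27.0% with the core and 15.9% without it in BG3, and 32.2% and 18.7% in Kc167. Of the members with the DRE core, RpL36A, RpS16, RpL41, RpL26 and RpS14a were the ones near a BG3 border. With the M1BP core, 8 of 14 members were near a border in BG3 and 8 in Kc167 (57.1% each), against 28 of 77 without it in BG3 (36.4%) and 29 in Kc167 (37.7%). Over all genes the shares with and without this core were 31.5% and 15.7% in BG3, and 34.6% and 18.7% in Kc167. With CTTT within 10 bases of the start, 16 of 38 were near a border in BG3 (42.1%) and 18 in Kc167 (47.4%), and without it 20 of 53 (37.7%) and 19 (35.8%), while over all genes the shares were 18.3% with it and 16.8% without it in BG3, and 22.4% and 19.7% in Kc167. Members with a snoRNA gene inside were near a border for 12 of 28 in BG3 (42.9%) and 11 in Kc167 (39.3%), and those without one for 24 of 63 (38.1%) and 26 (41.3%). Members with a divergent 5' end within 1 kb were near a border for 21 of 53 in each map (39.6%), and those without one for 15 of 38 in BG3 (39.5%) and 16 in Kc167 (42.1%). Over all genes these shares were 23.3% with such a neighbour and 13.8% without it in BG3, and 27.8% and 16.0% in Kc167.

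Other genes of protein synthesis were counted for comparison. Translation factor genes (symbols eIF, eEF and eRF) lay within 2 kb of a border for 19 of 54 in BG3 (35.2%) and 20 in Kc167 (37.0%). The mitochondrial ribosomal genes did so for 21 of 73 in BG3 (28.8%) and 26 in Kc167 (35.6%), and 26 genes of ribosome biogenesis, such as the rRNA methylase gene Fib, for 6 (23.1%) and 8 (30.8%). Near conserved borders lay 10 translation factor genes (18.5%), 8 mitochondrial ribosomal genes (11.0%) and 3 biogenesis genes (11.5%), against 19.8% of the cytoplasmic ribosomal genes. The Wilson intervals of these shares overlapped with those of the members. CTTT within 10 bases of the start was found in 11.1% of translation factor genes, 4.11% of mitochondrial ribosomal genes and 7.69% of biogenesis genes. In the same order, the DRE core was in 27.8%, 20.5% and 15.4%, against 30.8% of members. The M1BP core was in 11.1%, 11.0% and 19.2%, against 15.4% of members, so neither core was particular to them. A divergent 5' end lay within 1 kb for 48.1%, 76.7% and 73.1%, against 58.2% of members. A snoRNA gene lay inside 1.85%, 0% and 15.4%, against 30.8% of members. Of the mitochondrial ribosomal genes near a BG3 border 11 of 21 ran away from it (52.4%), and those near a Kc167 border did so for 21 of 26 (80.8%).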

How the data were processed

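Hi-C reads of 2 biological replicates per line were aligned to dm6 and merged by the authors into a BG3 map and a Kc167 map. BWA (0.7.15-r1140) and Juicer (1.7.6) are in the submitters' processing notes. HiCExplorer gave TADs at restriction fragments, in a permissive and a more stringent list, and HiCCUPS gave loops from 2 kb pixels. The deposited TAD lists hold a TAD separation score, used within 1 map. The deposited loop lists hold observed contact counts, the expected contacts as a signal from the donut, and q-values.

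Borders are TAD ends, merged where they touch, from the permissive list. The 5' end is that of the gene record of Ensembl 115, on dm6. A border is strong where the stringent list has one no more than 20 bp away. Loops of both maps match if both anchors lie within 10 kb. Depth cannot be read from these lists. The self-test on simulated borders recovered the planted distances and classes. Python 3.11.15, NumPy 2.4.6, SciPy 1.17.1 and Matplotlib 3.10.9 were used.

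Members, comparison lists and rules were chosen with earlier results of these data known. Named are all members within 2 kb of a border, in loop anchors or sharing a TAD, the 5 farthest from borders and the 5 with the largest difference, those in the 3 widest and narrowest TADs, the stalk genes, and neighbours across borders and loops. Some genes that this rule takes are not reported here by name, though the counts include them. No test was run, as each line has 1 map. The alternatives vary distance, chromosomes, border list, classes, gene set, starts and anchors.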

Additional observations from a re-analysis of the deposited data

How the results depend on the processing

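Of 82 alternatives to 16 results, 60 stayed within the 95% interval of the main value. Many alternatives reuse most of the same genes, so this count is not a measure of robustness. No paired analysis was possible because the replicates were merged before TADs and loops were called, so none could be left out either. With stringent TADs, 15.4% of members in BG3 and 25.3% in Kc167 were within 2 kb of a border (6.05% and 10.5% of all genes), the median distance was 44.2 kb in BG3 and 16.1 kb in Kc167, the median TAD width 224 kb and 112 kb, and 30.8% and 27.5% of members shared a TAD. With strong borders only, the classes held 8.79% (conserved, 2.60% of all genes), 3.30% (fuzzy, BG3, 1.88%), 2.20% (BG3-specific, 1.35%) and 1.10% (Kc167-specific, 3.01%). On X only, 50.0% of members in BG3 and 28.6% in Kc167 were near a border. With 1 kb, 28.6% were in BG3 (11.9% of all genes). With 5 kb, 56.0% were in Kc167 (34.2% of all genes), and 23.1% were near a Kc167-specific border (15.7%). When specific meant over 10 kb, BG3-specific borders held 2.20% of members (2.60% of all genes) and fuzzy ones 17.6% (7.94%). Without the extension of anchors, 3.30% in BG3 (3.12% of all genes) and 1.10% in Kc167 (3.97%) were in a loop anchor. With starts and borders on different fragments, chosen after seeing the data, 41.7% of members near a Kc167 border ran away from it. Fewer borders and narrower limits lower these shares by construction. The members' share near any border stayed above that of all genes in each map at each of these limits and lists.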

Other observations

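The string TGGTATTTT was noticed in the promoters of RpL24 and RpS3 printed above, at bases -37 and -36, and was then counted on either strand from 250 bases before to 50 bases after all starts. It occurred in 9 of 91 ribosomal protein genes (9.89%), against 4 of 73 mitochondrial ribosomal genes (5.48%), 3 of 26 ribosome biogenesis genes (11.5%), 0 of 54 translation factor genes and 3.11% of all protein-coding genes. The 9 were RpLP1, RpL24, RpL30, RpLP2, RpS16, RpL14, RpS25, RpS3 and RpL6. Within 2 kb of a border were 5 of the 9 in BG3 and all 9 in Kc167, against 31 and 28 of the 82 members without it. In BG3 the exceptions were RpL24, RpL14, RpS25 and RpL6, each near a Kc167-specific border. For a start near a border in Kc167 alone, that class is largely fixed by its definition. Over all genes, 155 of 433 with the string were near a border in BG3 (35.8%) and 167 in Kc167 (38.6%), against 16.3% and 19.4% of those without it. The string was chosen from members at borders, so the counts over the members are a description.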
